A study of Rattus norvegicus with 31 samples.

Results

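Brown adipose tissue (BAT) of rats with a narrowed thoracic aorta was compared with BAT of sham-operated rats in 9 bulk RNA-seq libraries, chosen by tissue and surgery as the labels give them, of 31 libraries in the series. The coarct BAT group held 5 libraries (19, 23, 27, 29 and 30 by the number in their titles). The sham BAT group held 4 (20, 22, 24 and 26). In the coarct rats a silk ligature was tied around the descending thoracic aorta, and in the sham rats it was placed by the same surgery and left loose. All were male Sprague-Dawley rats without a genetic change, aged 10 to 15 weeks with a time point of 15 weeks, kept at 22 °C on a chow diet. The series was designed around the fat that surrounds the aorta (perivascular fat, PVAT), dissected above and below the ligature. The systolic pressure gradient across the narrowing is given as about 20 mmHg at 4 weeks after surgery. The labels do not say from which part of the body the BAT came, and their extraction protocol speaks of PVAT only. PVAT is used here only beside BAT, with 6 coarct and 5 sham libraries from each side of the ligature. No source states that each title number is 1 rat, so the tests speak for the spread between libraries, which may be technical.

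Brown adipocytes burn fat and glucose to make heat. Noradrenaline from sympathetic nerves acts on the beta-3 adrenergic receptor, cyclic AMP rises, stored triglyceride is broken down, and the fatty acids both fuel and open uncoupling protein 1 (Ucp1), which lets protons back into the mitochondrial matrix without ATP synthesis. The tissue is dense in mitochondria and vessels, rebuilds its fat from glucose through the fatty acid synthesis enzymes, and holds macrophages, fibroblasts, lymphatics and nerve among its adipocytes.

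The coarct BAT libraries held 16232414 to 21648074 counts each and the sham BAT libraries 17112122 to 26530733, and mitochondrial transcripts took 33.8% to 49.9% of them. Levels below are normalised CPM, counts scaled to the library's total after TMM correction and not divided by gene length, and a difference is the log2 ratio of coarct over sham. Library 29 of coarct BAT stood apart. It lay at 88.4 on the first principal component, which held 29.6% of the variance, against -33.1 to 9.67 for the other 8 libraries. Its scaling factor was 0.729 and its median correlation with the other libraries 0.9175, against at least 0.9426 for each of the others. Library 19 of coarct BAT held 8200 normalised CPM of skeletal muscle transcripts, against 213 to 834 in the other coarct libraries and 243 to 1340 in sham BAT. Reads of the mitochondrial 12S rRNA locus split the libraries at 451 CPM. Coarct 29 and 30 and sham 22 and 26 lay below it, while coarct 19, 23 and 27 and sham 20 and 24 lay above it.

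Brown adipocyte transcripts were abundant in both groups. Ucp1 was at 1030, 1540, 1550, 2090 and 751 normalised CPM in coarct BAT and at 1240, 1040, 1330 and 1570 in sham BAT. The sham values lay within the span of the coarct values, with coarct 29 highest and coarct 30 lowest. The means were 1390 ± 517 in coarct BAT (SD, n = 5) and 1300 ± 221 in sham BAT (SD, n = 4). The log2 difference was 0.10, and its 95% interval of -0.54 to 0.74 held differences in both directions. Cidea, a lipid droplet protein abundant in brown adipocytes, averaged 2040 ± 809 in coarct BAT and 1840 ± 563 in sham BAT. Adiponectin (Adipoq), made by all adipocytes, averaged 1760 ± 571 in coarct BAT and 1560 ± 233 in sham BAT. For Ucp1, Cidea and Adipoq the sign of the difference turned without library 29, at -0.09, -0.11 and -0.04. For Ucp1 and Cidea it also turned without sham 22 (-0.05 and -0.10). With library totals as the only scaling, Ucp1 was at -0.07 and Cidea at -0.01. With each library's trend on gene length removed, they were at -0.10 and -0.20. Elovl3, a fatty acid elongase used as a brown fat marker in mice, had counts in 1 of the 9 libraries only, at 0.0624 normalised CPM in coarct 27, and was not tested. Fgf21, a hormone that brown fat can secrete, reached at most 0.733 in coarct BAT and 0.396 in sham BAT and was not tested either.

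**Figure D1:**
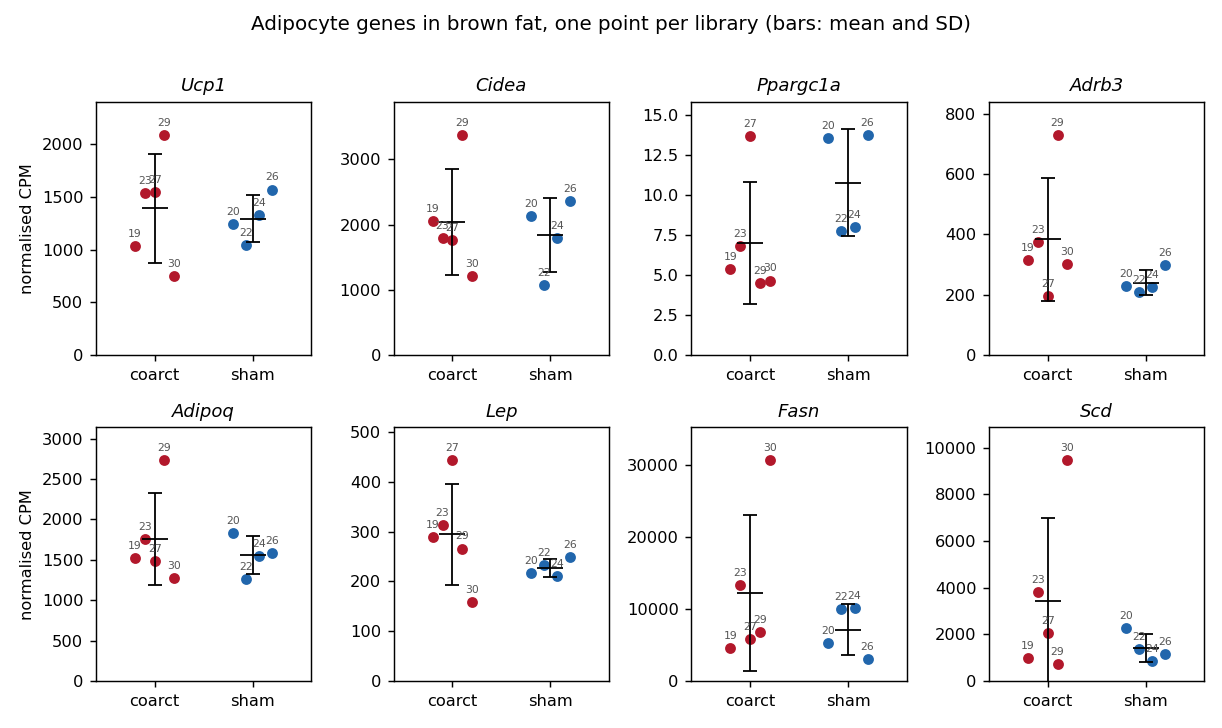
Normalised CPM (y axis, linear from 0) of 8 adipocyte genes in the 5 coarct and 4 sham BAT libraries, with title numbers beside the points and bars for the mean and SD. The groups overlap in every panel, coarct 29 is highest for Ucp1, Cidea, Adrb3 and Adipoq, and coarct 30 is highest for Fasn and Scd.

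No gene passed the threshold between coarct and sham BAT. Of 13644 genes tested with edgeR's quasi-likelihood test, 0 (0%) had a Benjamini-Hochberg adjusted p under 0.05, and the lowest adjusted p was 0.652. An unadjusted p under 0.05 was reached by 928 genes (6.8%), of which 604 (4.43% of those tested) were higher and 324 (2.37%) lower in coarct BAT. DESeq2 also called 0 genes, with 1097 at an unadjusted p under 0.05. Coarct and sham values did not overlap for 243 genes (1.78%), with every coarct library above every sham library for 146 (1.07%) and below for 97 (0.711%). The values that follow therefore describe these libraries, and a difference named as higher or lower did not pass the test.

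The genes that carry the noradrenaline signal differed in direction from one another. Of 26 tested genes of adrenergic and thyroid signalling, 12 were fitted higher, with a median log2 difference of -0.07 beside 0.04 over all genes tested, of which 54.6% were fitted higher. Adrb3, the beta-3 adrenergic receptor, was at 314, 375, 197, 731 and 303 normalised CPM in coarct BAT and at 230, 208, 225 and 300 in sham BAT. Coarct 27 lay below all sham libraries, coarct 29 lay far above all others, and the other 3 coarct libraries exceeded every sham library. The fitted log2 difference was 0.67 (SE 0.334), and 0.30 without coarct 29. Adrb1, the beta-1 receptor, averaged 8.70 ± 4.48 in coarct BAT and 5.56 ± 1.14 in sham BAT. Prkaca, a catalytic subunit of the cyclic AMP-dependent kinase, averaged 194 ± 33.9 in coarct BAT and 143 ± 25.6 in sham BAT.

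The 3 members of the list with an unadjusted p under 0.05 (11.5%, beside 6.8% of all genes) were each lower in coarct BAT, and they were picked for that p. Pde4d, a phosphodiesterase that breaks down cyclic AMP, was at 10.6, 10.9, 26.6, 8.95 and 19.8 normalised CPM in coarct BAT and at 42.1, 23.8, 25.1 and 30.7 in sham BAT. Only coarct 27 reached into the sham range. The log2 difference was -0.98 (SE 0.324, unadjusted p = 0.0105), and -0.84 without coarct 29. Pde3b, the phosphodiesterase that insulin activates in adipocytes, averaged 119 ± 24.6 in coarct BAT and 169 ± 36.6 in sham BAT, with a log2 difference of -0.51. Npr3, the receptor that clears natriuretic peptides, averaged 27.1 ± 10.7 in coarct BAT and 43.2 ± 14.7 in sham BAT.

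Of 22 tested genes of the thermogenic program, 14 were fitted higher, with a median of 0.15 that was -0.07 without coarct 29, -0.07 without sham 22 and -0.03 with library totals as the only scaling. Ppargc1a, the coactivator that drives mitochondrial genes, was at 5.38, 6.84, 13.7, 4.54 and 4.67 normalised CPM in coarct BAT and at 13.6, 7.74, 8.04 and 13.8 in sham BAT. All coarct libraries but 27 lay below all sham libraries. The fitted log2 difference was -0.62, with a 95% interval of -1.38 to 0.14, and -1.01 without coarct 27. Cox4i2, an alternative isoform of cytochrome oxidase subunit 4, was at 4.79, 3.22, 2.68, 5.42 and 3.85 in coarct BAT and at 1.63, 1.64, 1.76 and 2.26 in sham BAT. Every coarct library exceeded every sham library. Its log2 difference was 1.13 (SE 0.283, unadjusted p = 0.00184), and 1.0 without coarct 29.

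Fatty acid synthesis genes were fitted higher in 18 of 19 tested members, with a median log2 difference of 0.54. Without coarct 23 the median was 0.33, and without coarct 30 it was 0.34. Fasn, the fatty acid synthase, was at 4590, 13300, 5780, 6870 and 30700 normalised CPM in coarct BAT and at 5300, 9990, 10200 and 3110 in sham BAT. Coarct 23 and 30 lay above all sham libraries and the other 3 coarct libraries lay among them. Its fitted log2 difference was 0.78 with a 95% interval of -0.47 to 2.03, and 0.05 without coarct 30. Scd, the desaturase that makes oleate, was at 1000, 3800, 2070, 738 and 9460 in coarct BAT and at 2260, 1380, 869 and 1170 in sham BAT. Here too coarct 23 and 30 were the highest libraries, and coarct 29 the lowest. For Scd the log2 difference was 1.27, and 0.37 without coarct 30.

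Slc25a1, the carrier that exports citrate from mitochondria for fat synthesis, was at 83.2, 229, 74.9, 159 and 409 normalised CPM in coarct BAT and at 79.9, 82.1, 80.8 and 70.1 in sham BAT. Sham libraries lay close together, while coarct 23, 29 and 30 spread above them. The log2 difference was 1.29 (SE 0.441, unadjusted p = 0.0129), and 0.76 without coarct 30. Within the libraries above the 12S split Slc25a1 stood at 0.65, and within those below it at 1.85. Thrsp, a lipogenic nuclear protein induced by thyroid hormone and carbohydrate, averaged 5720 ± 2550 in coarct BAT and 3300 ± 498 in sham BAT. Acly, which cleaves citrate to acetyl-CoA, averaged 1670 ± 1420 in coarct BAT and 959 ± 219 in sham BAT. Coarct 23 was the highest of the 9 libraries for 7 of the 19 members and coarct 30 for 8, so that the list's level varied more within coarct BAT than between the groups. The summed level was 17100, 40900, 19600, 28700 and 63500 in coarct BAT and 20200, 24300, 23600 and 14900 in sham BAT. Within the 5 libraries above the 12S split, which leaves out coarct 29 and 30, the log2 difference of Fasn was 0.0013, against 1.47 within the 4 below it.

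Sterol synthesis genes were fitted higher in 14 of 18, with a median of 0.23 that was 0.07 without coarct 23, in which 10 of the 18 were highest. Triglyceride assembly and lipolysis genes were fitted higher in 16 of 26, with a median of 0.20. It was 0.09 without coarct 29, 0.09 without sham 22, 0.09 with each library's trend on gene length removed and 0.05 with library totals alone. Lipe, the hormone-sensitive lipase, averaged 1400 ± 172 in coarct BAT and 994 ± 232 in sham BAT, with a log2 difference of 0.50 (unadjusted p = 0.0452). Fabp5, a fatty acid carrier, was at 33.4, 36.8, 11.7, 50.8 and 38.9 normalised CPM in coarct BAT and at 15.1, 15.4, 11.7 and 15.7 in sham BAT. All coarct libraries except 27 exceeded every sham library by more than the whole span of the sham values. Its log2 difference was 1.25 (SE 0.332, unadjusted p = 0.00282), and 0.91 with the length trend removed. Lpl, which frees fatty acids from circulating lipoproteins, averaged 2630 ± 526 in coarct BAT and 3280 ± 681 in sham BAT. Slc2a4, the insulin-regulated glucose transporter, averaged 418 ± 146 in coarct BAT and 281 ± 37.7 in sham BAT, with a log2 difference of 0.57, and 0.36 without coarct 29. Lep, the leptin gene, averaged 294 ± 102 in coarct BAT and 227 ± 17.4 in sham BAT.

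Nuclear genes of the respiratory chain were fitted higher in coarct BAT in 35 of 36 tested members, with a median log2 difference of 0.52. Cox4i1, the common isoform of cytochrome oxidase subunit 4, was at 1580, 1450, 1190, 2380 and 1290 normalised CPM in coarct BAT and at 970, 889, 1020 and 985 in sham BAT. All coarct libraries lay above all sham libraries, and coarct 29 was highest. The fitted log2 difference was 0.71 (SE 0.241, unadjusted p = 0.0126), and 0.51 without coarct 29. Uqcrq, a small subunit of complex III, averaged 946 ± 516 in coarct BAT and 481 ± 154 in sham BAT. Ndufs7, an iron-sulphur subunit of complex I, averaged 388 ± 203 in coarct BAT and 218 ± 61.4 in sham BAT. Atp5f1b, the beta subunit of ATP synthase, averaged 5500 ± 1780 in coarct BAT and 3710 ± 395 in sham BAT. By complex, the medians were 0.48 over 14 genes of complex I, 0.43 over 4 of complex II, 0.43 over 7 entries of complex III, 0.63 over 6 of complex IV and 0.49 over 4 of ATP synthase. Uqcrb has 2 entries, which the counting could split.

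Library 29 and gene length moved with this list. Coarct 29 was the highest of the 9 libraries for 33 of the 36 members, and sham 22 or sham 24 was the lowest for 18 and 14 of them. Without coarct 29 the list's median was 0.20. The list's median gene length was 1046 bases, against 2125 over all genes tested, and the log2 differences ran with gene length across all genes (Spearman rho -0.368 across genes, which are not independent replicates). Without coarct 29 this rho was -0.184. Of 10 equal bins of genes by length, the shortest (median 556 bases) had a median log2 difference of 0.33 and the longest (median 5857 bases) had -0.17. Against the mean of the 9 libraries, coarct 29 stood at 0.78 for the shortest bin and at -0.60 for the longest. Coarct 27 (-0.26 and 0.38), sham 20 (-0.06 and 0.13), sham 22 (-0.09 and 0.20) and sham 24 (-0.42 and 0.09) ran the other way. Coarct 19 (0.09 and -0.10) and coarct 23 (0.10 and -0.12) ran the same way as coarct 29, by less. With each library's length trend removed, the list's median was 0.25 and that of Cox4i1 0.39. An unadjusted p under 0.05 was reached by 5 of the 36 members (13.9%, beside 6.8% of all genes), and 3 (8.33%, beside 1.78%) had groups that did not overlap. The part of length and of library 29 in the list's level was not tested beyond these values. The 13 protein genes of the mitochondrial genome had a median of 0.07, which was -0.10 without coarct 29 and -0.15 without sham 22.

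**Figure D2:**
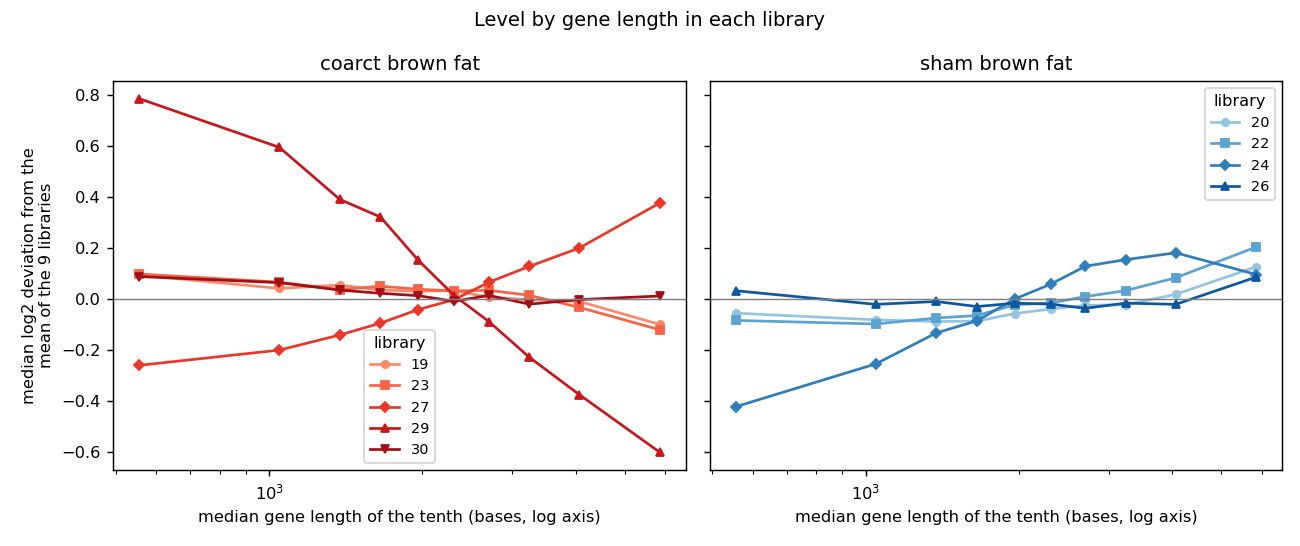
Median log2 deviation of each library from the mean of the 9 BAT libraries (y axis) in 10 bins of the tested genes by length (x axis, log scale), for coarct libraries at left and sham libraries at right. Coarct 29 runs from 0.78 for the shortest bin to -0.60 for the longest. Coarct 27 and sham 20, 22 and 24 slope the other way.

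Fatty acid oxidation genes were fitted higher in 20 of 26, with a median of 0.21 that was 0.04 without coarct 29 and 0.08 without sham 22. Coarct 29 was highest for 17 of the 26 and sham 22 lowest for 13. Acaa2, the thiolase of mitochondrial beta-oxidation, averaged 1870 ± 808 in coarct BAT and 1160 ± 180 in sham BAT, with a log2 difference of 0.69, and 0.38 without coarct 29. Pdk4, the kinase that shuts glucose carbon out of the citric acid cycle, averaged 251 ± 84.1 in coarct BAT and 346 ± 120 in sham BAT.

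The 20 genes with a symbol and the lowest p held 9 that were higher and 11 that were lower in coarct BAT, with log2 differences of 0.62 to 2.03 in size. The groups did not overlap for 18 of them, beside 1.78% of all genes, but the genes were picked for their p, so that this count is a description. Each had an adjusted p of 0.652.

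The lowest p belonged to Myoc (myocilin, a secreted glycoprotein, ENSRNOG00000003221, chromosome 13 in the authors' annotation). It was at 3.47, 2.40, 1.93, 2.44 and 2.57 normalised CPM in coarct BAT and at 5.38, 11.2, 6.29 and 4.42 in sham BAT. Every coarct library lay below every sham library, and sham 22 was highest. The log2 difference was -1.41 (SE 0.30, unadjusted p = 0.000519), and -1.11 without sham 22. The gene had 31 to 71 counts per coarct library and 86 to 389 per sham library. C7, a component of the membrane attack complex of complement, was at 106, 128, 197, 75.1 and 131 in coarct BAT and at 234, 377, 268 and 223 in sham BAT. No coarct library reached the lowest sham value. Its fitted log2 difference was -1.11 (SE 0.275), and -0.98 without sham 22.

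F13a1, the A subunit of coagulation factor XIII and abundant in resident macrophages, was at 20.9, 27.8, 41.1, 27.5 and 30.5 normalised CPM in coarct BAT and at 54.6, 70.7, 46.3 and 42.9 in sham BAT. The groups did not overlap, with coarct 27 close under sham 26. Its log2 difference was -0.86 (SE 0.222). Fgl2, a fibrinogen-related protein made by macrophages and T cells, averaged 45.4 ± 9.72 in coarct BAT and 82.1 ± 24.8 in sham BAT. Cers6, a ceramide synthase, was at 0.929, 0.317, 2.5, 0.542 and 1.6 in coarct BAT and at 7.13, 5.24, 2.72 and 4.16 in sham BAT. It had the widest gap of the 20 on the log2 scale, -2.03 (SE 0.514), at a low level, with coarct 27 close under sham 24. The other genes of the 20 that were lower in coarct BAT were Calml3 (a calmodulin-like protein), Pi15 (a secreted peptidase inhibitor), Pcdh20 (a protocadherin), Itgbl1 (an integrin-like matrix protein), Nova1 (a splicing factor) and Rell1 (a membrane protein related to a TNF receptor), with log2 differences of -0.85 to -1.50.

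On the higher side, Park7 (DJ-1, a protein that guards against oxidative stress, ENSRNOG00000018289, chromosome 5) was at 169, 166, 119, 214 and 133 normalised CPM in coarct BAT and at 91.3, 89.0, 99.5 and 96.8 in sham BAT. All coarct libraries lay above the narrow sham range. The fitted log2 difference was 0.77 (SE 0.201, unadjusted p = 0.00251), 0.64 without coarct 29 and 0.55 with the length trend removed. Bambi, a decoy receptor that dampens TGF-beta and BMP signals, was at 5.77, 6.97, 5.24, 6.71 and 5.86 in coarct BAT and at 3.88, 3.60, 3.17 and 3.03 in sham BAT. Both groups were tight and did not overlap. Its fitted log2 difference was 0.84 (SE 0.203), and 0.80 without coarct 29. Polr2e, a subunit shared by the RNA polymerases, averaged 147 ± 24.1 in coarct BAT and 84.5 ± 14.3 in sham BAT. Cltb, a clathrin light chain, averaged 50.3 ± 8.73 in coarct BAT and 32.6 ± 2.13 in sham BAT. With the length trend removed, the log2 difference of Polr2e was 0.51 in place of 0.79, and that of Cltb 0.39 in place of 0.62. Card9, an adaptor of innate immune signalling in myeloid cells, averaged 10.4 ± 2.96 in coarct BAT and 4.91 ± 1.66 in sham BAT. Klhl30, a kelch-family protein, was at 5.08 in coarct 19, the library with the most muscle transcripts, and at 1.37 to 2.38 in the other coarct libraries, against 0.438 to 0.976 in sham BAT. Rhbdl1, a rhomboid protease, Fabp5 and Cox4i2 made up the rest.

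**Figure D3:**
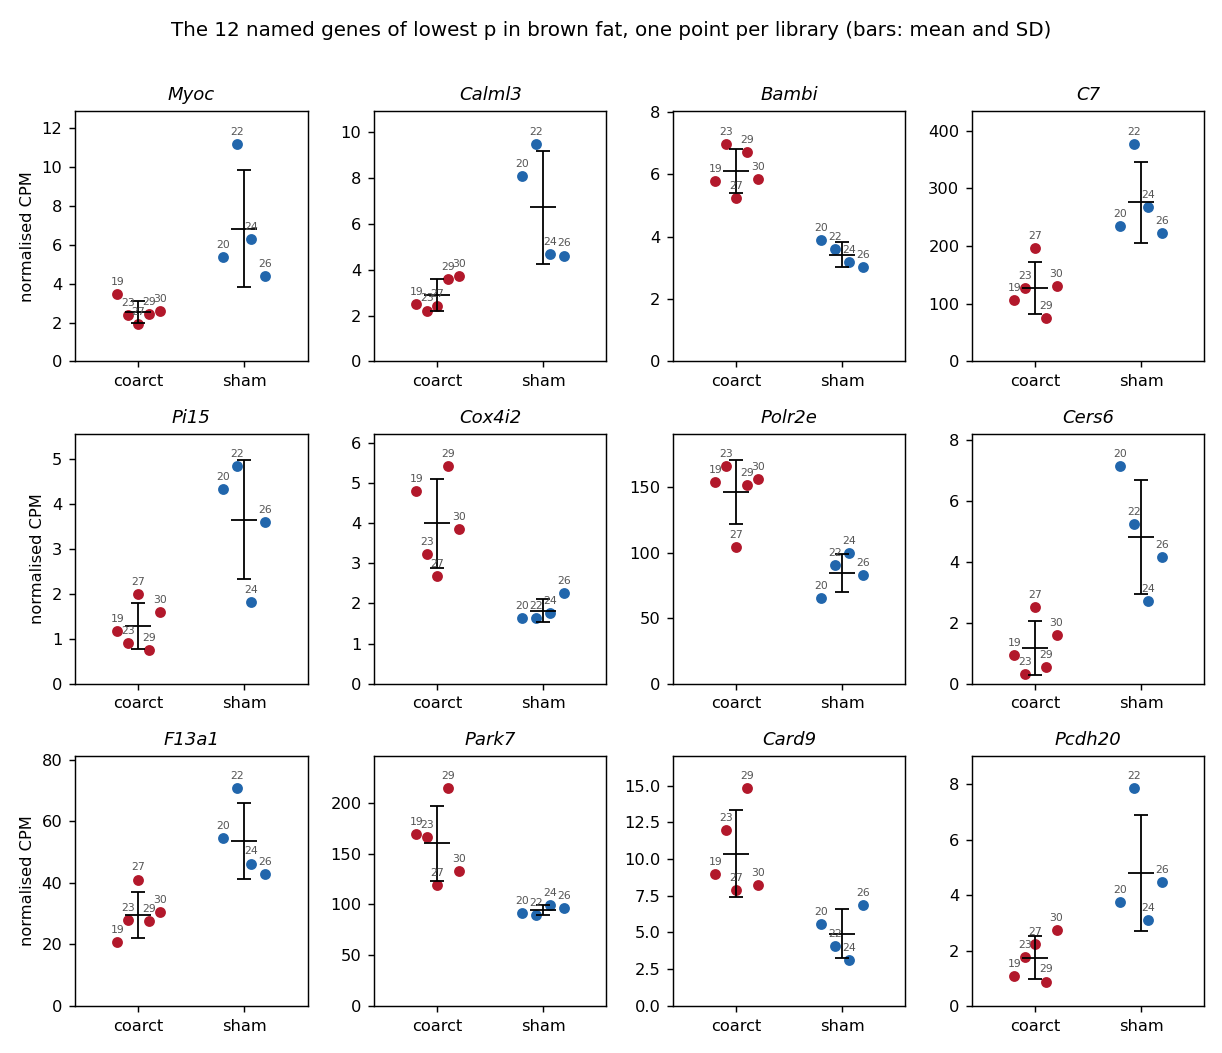
Normalised CPM (y axis, linear from 0) of the 12 genes of lowest p in the 5 coarct and 4 sham BAT libraries, with title numbers beside the points and bars for the mean and SD. The groups do not overlap in 11 of the panels, Pi15 being the exception, beside 1.78% of all genes tested. The genes were picked for their p in these libraries, and none passed the adjusted threshold.

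Macrophage genes were fitted lower in coarct BAT in 19 of 20 tested members, with a median log2 difference of -0.24, and -0.47 without coarct 29. Mrc1, the mannose receptor of resident macrophages, was at 14.4, 21.4, 31.7, 13.1 and 24.7 normalised CPM in coarct BAT and at 35, 60.2, 30.4 and 31.5 in sham BAT. Coarct 27 alone reached the sham range, and sham 22 was far above the rest. The log2 difference was -0.90 (SE 0.294, unadjusted p = 0.00987), and -0.67 without sham 22. Siglec1, a sialic acid-binding receptor of macrophages, averaged 4.99 ± 1.59 in coarct BAT and 9.37 ± 4.35 in sham BAT. Cd163, the haemoglobin scavenger receptor, averaged 17.4 ± 10.5 in coarct BAT and 31.7 ± 17.2 in sham BAT. Cd68, a lysosomal protein of macrophages, averaged 14 ± 2.88 in coarct BAT and 14.2 ± 4.80 in sham BAT, a log2 difference of -0.03. Sham 22 was the highest library for 11 of the 20 members and coarct 29 for 8. Without sham 22 the list's median was -0.06, and without coarct 27 it was -0.12. The summed level was 274, 372, 331, 633 and 408 in coarct BAT and 417, 762, 354 and 464 in sham BAT, so that the groups overlapped. In bulk tissue, fewer cells of a type and less RNA per cell cannot be told apart.

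Lymphatic endothelial genes were fitted lower in all 7 tested members, with a median of -0.98. Mmrn1, a multimerin of lymphatic endothelium, was at 2.20, 0.951, 0.312, 2.51 and 2.61 normalised CPM in coarct BAT and at 4.38, 11.5, 1.93 and 6.06 in sham BAT. Sham 22 was highest, and sham 24 lay among the coarct libraries. Lyve1, the hyaluronan receptor of lymphatic vessels and some macrophages, averaged 7.62 ± 3.20 in coarct BAT and 15.0 ± 8.92 in sham BAT, with a log2 difference of -0.98 (SE 0.378). Reln, the glycoprotein reelin, averaged 0.911 ± 0.311 in coarct BAT and 3.02 ± 3.07 in sham BAT. The summed level was 21.9 to 46.3 in coarct BAT, against 107 in sham 22 and 37.3 to 45.1 in the other sham libraries. Sham 22 was highest for 6 of the 7, and without it the median was -0.52. Prox1, the defining transcription factor of these cells, was at 0.0906 to 0.412 in coarct BAT and at 0.113 to 1.90 in sham BAT, too low to be tested.

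Schwann cell genes were fitted lower in 9 of 13, with a median of -0.43 that became 0.12 without sham 22, the highest library for 9 of them. Collagens and matrix genes were fitted lower in 22 of 36, with a median of -0.23 that was -0.09 without sham 22 and -0.11 without coarct 29. Lox, the enzyme that crosslinks collagen, was at 10.8, 11.1, 8.73, 8.88 and 11.4 normalised CPM in coarct BAT and at 13.1, 28.9, 14.8 and 13.9 in sham BAT. The coarct values were tight and all below the sham values, of which sham 22 was highest. Its log2 difference was -0.80 (SE 0.245, unadjusted p = 0.00696), and -0.50 without sham 22. Postn, the matricellular protein periostin, was at 379, 393, 433, 455 and 318 in coarct BAT and at 649, 539, 540 and 556 in sham BAT. All coarct libraries lay below all sham libraries. Its fitted log2 difference was -0.53 (SE 0.186, unadjusted p = 0.0147), and -0.58 without coarct 29. Col1a1, the main chain of collagen I, averaged 1630 ± 743 in coarct BAT and 2440 ± 1950 in sham BAT. Col3a1, the chain of collagen III, averaged 2580 ± 419 in coarct BAT and 3340 ± 1760 in sham BAT. Without sham 22 the log2 differences of Col1a1 and Col3a1 were -0.14 and -0.09, in place of -0.59 and -0.37. Pdgfra, the receptor that marks adipocyte progenitors, averaged 29.5 ± 9.80 in coarct BAT and 42.1 ± 11.6 in sham BAT. Of 14 tested fibroblast and progenitor genes, 11 were fitted lower. The 1 with an unadjusted p under 0.05 (7.14%, beside 6.8% of all genes), Thy1, was higher. Thy1 averaged 14.2 ± 2.81 in coarct BAT and 9.23 ± 3.73 in sham BAT (log2 difference 0.61, and 0.89 without sham 22).

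Immediate early genes, transcription factors switched on within minutes of a stimulus such as cyclic AMP, were fitted higher in 10 of 26 members, with a median of -0.06 (-0.29 to -0.04 with 1 library left out). Egr3 was at 0.831, 0.226, 0.624, 0.339 and 0.825 normalised CPM in coarct BAT and at 10.0, 0.748, 5.89 and 0.308 in sham BAT. Sham 20 and 24 stood far above, while sham 22 and 26 lay within the coarct range. The fitted log2 difference was -2.86 (SE 0.835, unadjusted p = 0.00511). Nr4a3, an orphan nuclear receptor, was at 0.831, 0.272, 0.561, 0.203 and 0.412 in coarct BAT and at 4.38, 0.345, 4.76 and 0.257 in sham BAT. Nr4a1, its relative, was at 9.29, 3.99, 1.81, 2.51 and 5.13 in coarct BAT and at 25.6, 5.96, 23.2 and 2.41 in sham BAT. Atf3, a stress-induced repressor, averaged 2.06 ± 0.825 in coarct BAT and 4.77 ± 3.72 in sham BAT. In each of the 4, which were the members with an unadjusted p under 0.05 (15.4%, beside 6.8% of all genes), sham 20 and 24 were the highest libraries. Sham 20 and 24 also lay above the 12S split and sham 22 and 26 below it. Within the 5 libraries above the split the log2 difference of Egr3 was -3.86, and within the 4 below it 0.08. Across all 26 members, sham 24 was the highest library for 13, sham 20 for 2, and coarct 29 and sham 22 for 4 each. The list's summed level was 893 in sham 24 and 637 in sham 20. It was 473 to 557 in coarct BAT, 503 in sham 22 and 368 in sham 26. Not every member was lower in coarct BAT. Gadd45b, a stress-induced growth arrest gene, averaged 4.59 ± 3.78 in coarct BAT and 2.38 ± 1.34 in sham BAT.

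Nr4a1 is induced by cyclic AMP through CREB, which binds the letters TGACGTCA and the shorter TGACG contained in them. The RefSeq promoter table (build GRCr8) held 17 of the 26 members, among the 4 only Nr4a1. Nr4a1 was picked as the only one of the 4 members with an unadjusted p under 0.05 that had an entry there. The 250 bases before its start (chr7:134259888-134260137, plus strand) are shown with capitals for TGACG or its reverse complement CGTCA.
Nr4a1: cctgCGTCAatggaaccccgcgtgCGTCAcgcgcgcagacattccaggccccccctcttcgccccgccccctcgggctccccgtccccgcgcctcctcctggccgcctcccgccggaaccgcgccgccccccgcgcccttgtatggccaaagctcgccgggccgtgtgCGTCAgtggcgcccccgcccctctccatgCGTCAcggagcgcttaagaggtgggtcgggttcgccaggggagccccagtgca
The window held TGACG on either strand 4 times and TGACGTCA 0 times. Of 33469 promoters in the table, 18.2% held TGACG on either strand in such a window and 1.59% held TGACGTCA, beside 11 and 5 of the 17 list members. A match is a description of letters.

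**Figure D4:**
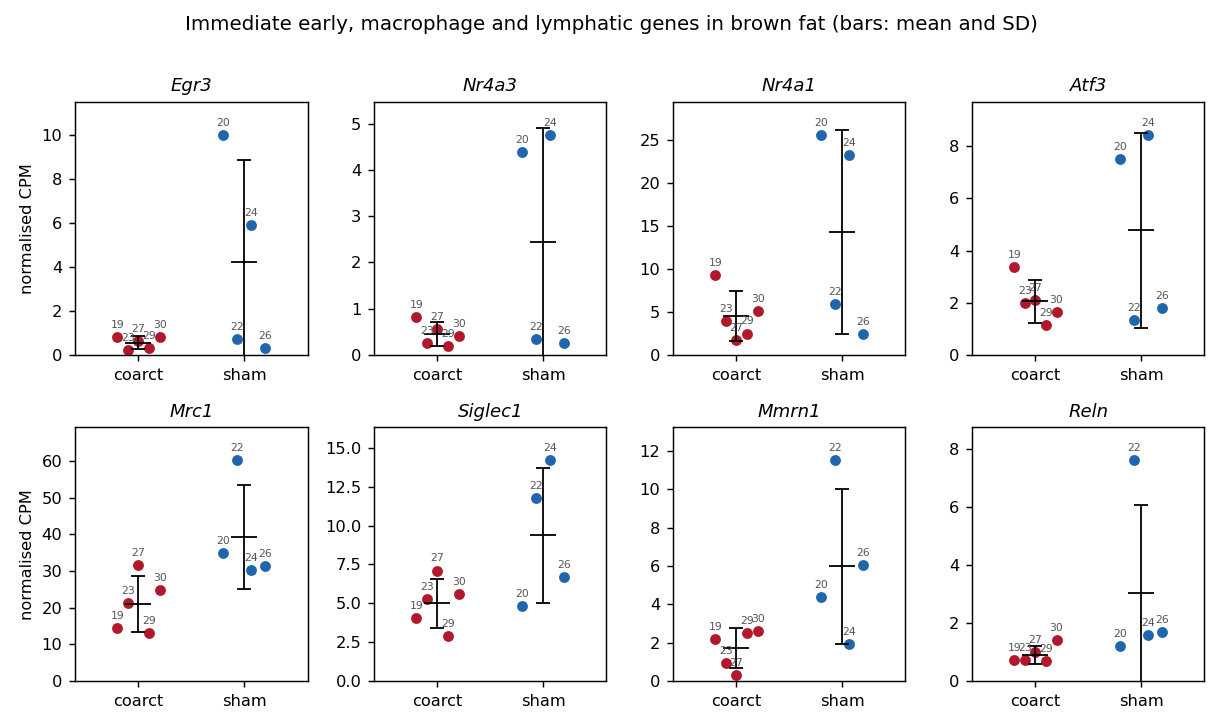
Normalised CPM (y axis, linear from 0) of 4 immediate early genes (top), 2 macrophage genes and 2 lymphatic genes (bottom) in the 5 coarct and 4 sham BAT libraries, with title numbers and bars for the mean and SD. Sham 20 and 24 stand above all other libraries in the top row, and sham 22 is highest for Mrc1, Mmrn1 and Reln.

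Clock genes were fitted higher in 9 of 18. Dbp, an output transcription factor of the clock, was at 15.6, 9.83, 8.92, 17.0 and 15.3 normalised CPM in coarct BAT and at 7.01, 8.29, 8.15 and 8.01 in sham BAT. Every coarct library exceeded every sham library, coarct 23 and 27 by little. The log2 difference was 0.76 (SE 0.227, unadjusted p = 0.00584). Arntl, the core activator, averaged 25.2 ± 1.64 in coarct BAT and 22.8 ± 1.49 in sham BAT, a difference that was -0.0072 on the log2 scale with library totals alone. Nr1d1, the repressor of Arntl, averaged 19.5 ± 8.90 in coarct BAT and 13.6 ± 4.55 in sham BAT. The time of day of collection is not given in the sources used here.

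Vascular smooth muscle genes were fitted higher in 14 of 17, with a median of 0.34. Acta2, smooth muscle actin, was at 111, 53.3, 30.9, 46.5 and 84.5 normalised CPM in coarct BAT and at 22.5, 44.0, 48.8 and 26.3 in sham BAT. Coarct 27 and 29 lay in the sham range and the other 3 above it. Its log2 difference was 0.88 (SE 0.368, unadjusted p = 0.0343). Without coarct 19, which was highest for 5 of the 17, the list's median was 0.13, and it was 0.18 without sham 20 and 0.20 without sham 26. Blood endothelial genes were fitted higher in 12 of 16, with a median of 0.17 that was 0.04 without coarct 19, 0.07 without sham 20, 0.06 without sham 26 and -0.02 with library totals alone. Tie1, a receptor of endothelium, was at 112, 93.0, 95.8, 108 and 93.4 in coarct BAT and at 55.3, 68.5, 87.4 and 67.0 in sham BAT. All coarct libraries lay above all sham libraries. Its fitted log2 difference was 0.53 (SE 0.18, unadjusted p = 0.0124). Agt, which encodes the precursor of angiotensin, was at 318, 331, 74.5, 1310 and 710 in coarct BAT and at 436, 328, 292 and 293 in sham BAT. The coarct libraries spread on both sides of the sham libraries, and without coarct 29 the log2 difference was 0.09 in place of 0.71.

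Skeletal muscle genes were fitted higher in all 17 tested members with a median of 1.28, and each was highest in coarct 19. Without that library the median was -1.69, so that the direction of this list rested on 1 library. Genes of creatine and calcium cycling, a heat source that does not need Ucp1, were fitted higher in 6 of 8 with a median of 0.54 that was -0.06 without coarct 19 and 0.34 without sham 26. Of these 8, 3 (37.5%, beside 6.8% of all genes) had an unadjusted p under 0.05. Ckb, the creatine kinase of brown fat, was at 160, 152, 131, 208 and 150 normalised CPM in coarct BAT and at 51.2, 114, 116 and 94.2 in sham BAT. All coarct libraries exceeded all sham libraries, and coarct 19 was not unusual among them. Its log2 difference was 0.77 (SE 0.253, unadjusted p = 0.0101). Alpl, the alkaline phosphatase that can remove phosphate from phosphocreatine, averaged 12.5 ± 3.74 in coarct BAT and 6.88 ± 2.16 in sham BAT, with groups that did not overlap. Gamt, which makes creatine, averaged 55.7 ± 20.2 in coarct BAT and 33.2 ± 3.36 in sham BAT.

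**Figure D5:**
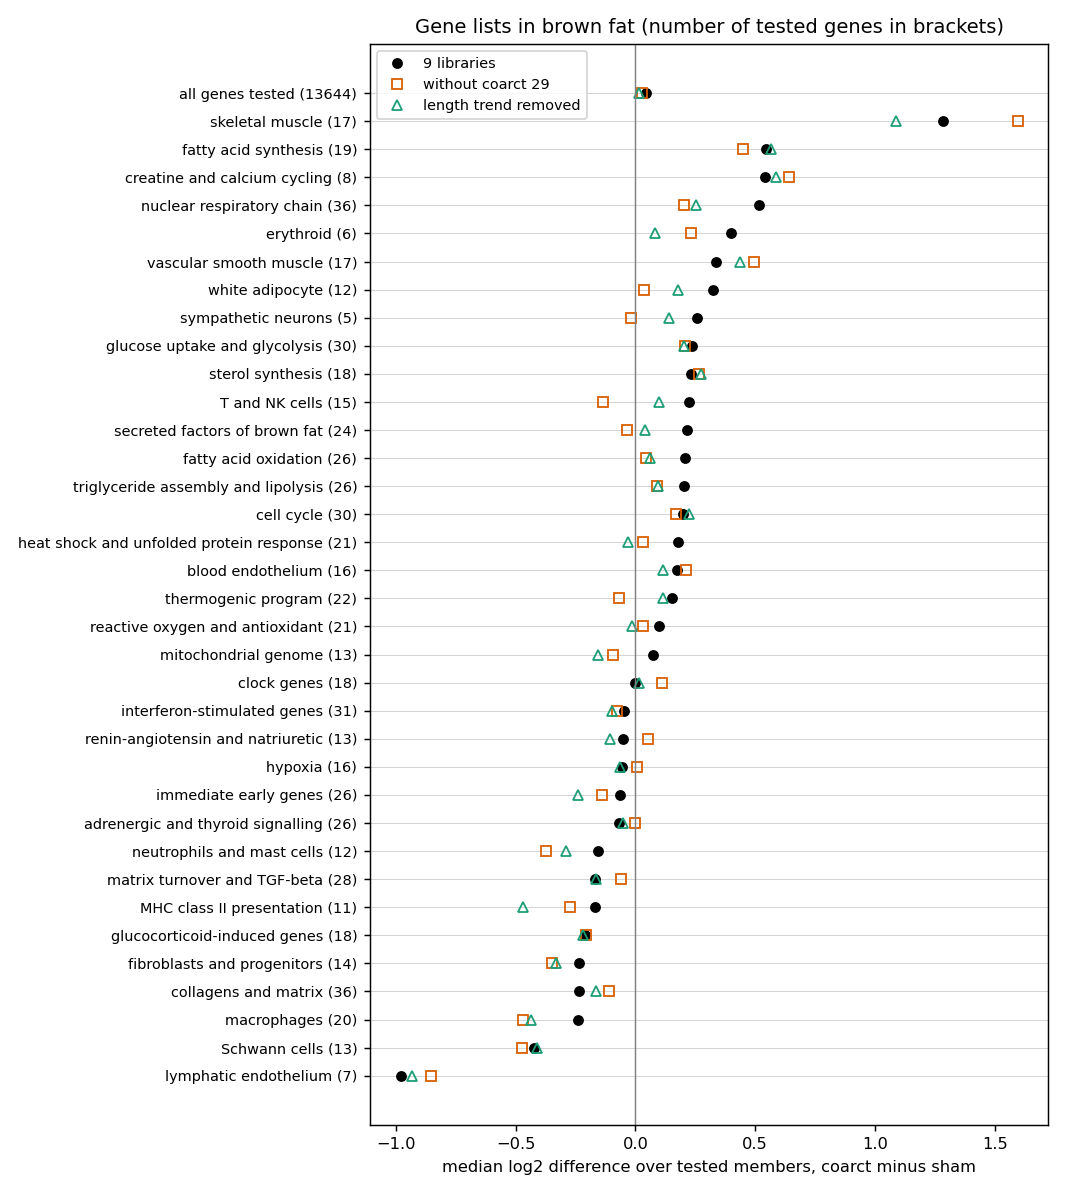
Median log2 difference of coarct minus sham BAT (x axis) over the tested members of each gene list with at least 5 of them and over all genes tested, with all 9 libraries (circles), without coarct 29 (squares) and with the length trend of each library removed (triangles). Fatty acid synthesis stays near 0.5 in all 3 settings, the nuclear respiratory chain lies at 0.52, 0.20 and 0.25, and macrophage and lymphatic lists lie below 0 in all 3.

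The surgery difference in BAT was also set against that in PVAT in 1 fit of all 31 libraries. For BAT minus PVAT above the ligature, 0 of 15018 genes (0%) passed in edgeR's quasi-likelihood test, with 833 (5.55%) at an unadjusted p under 0.05 and 932 in DESeq2, which called 0. For BAT minus PVAT below the ligature, 0 genes (0%) passed in edgeR, with 1612 (10.7%) at an unadjusted p under 0.05. DESeq2 called 2 genes in that contrast, LOC108349682 and LOC103693608, with 1755 at an unadjusted p under 0.05. Park7 had the lowest p of the second contrast. Its log2 difference of coarct over sham was 0.73 in BAT and -0.13 in PVAT below, and the gap of 0.86 (SE 0.20, unadjusted p = 0.000173) had an adjusted p of 0.422 in edgeR. Cltb, next in order, had 0.59 in BAT and -0.10 in PVAT below. Cox4i1 had 0.67 in BAT and -0.16 in PVAT below, and the nuclear respiratory chain list had a median of 0.0048 in PVAT above and -0.16 in PVAT below. Fatty acid synthesis (0.27), lymphatic (-0.51) and macrophage (-0.35) lists had medians in PVAT above of the same direction as in BAT. In PVAT below these medians were -0.09, 0.08 and -0.03. Of the 20 genes of lowest p in BAT, Rell1 had -0.49 in PVAT above and -0.66 in PVAT below. Myoc had -0.76 and 0.18. Without coarct BAT 29, 389 and 918 genes reached an unadjusted p under 0.05 in the 2 contrasts. Egr3 was fitted lower in coarct libraries at all 3 sites in the fit of 31 libraries. The log2 differences were -2.89 in BAT, -2.60 in PVAT above and -1.74 in PVAT below. In PVAT the unadjusted p by edgeR was 0.0202 above and 0.0992 below. In BAT only sham 20 and 24 stood above the coarct libraries. The sites share title numbers, and the values of 1 number may come from 1 rat, so the 3 sites may not be independent. The fit itself took the 31 libraries as independent.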

How the data were processed

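Bulk RNA-seq libraries of rat BAT and PVAT were quantified by a sequencing company, per the labels. Raw counts for each Ensembl gene, whole numbers without scaling, were deposited, as were FPKM values, which equal count over gene length and library total. STAR 2.5, HTSeq 0.6.1 and DESeq2 1.24.0 are named in the submitters' processing notes. Genome build, annotation and strandedness are not stated there or in the labels, so genes that overlap or have close copies may share reads. Of 32883 entries, 25 names were taken from the FPKM table.

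For the 9 BAT libraries, edgeR 4.0.16 under R 4.3.3 was run on the counts (filterByExpr, TMM, quasi-likelihood F test), with a Benjamini-Hochberg adjusted p under 0.05 as the threshold. SE is the absolute log2 difference over the square root of F, and 95% intervals use the test's degrees of freedom. Interaction contrasts used 6 groups in 31 libraries. Alternatives included DESeq2 1.42.0, limma 3.58.1 on the log2 of the deposited FPKM plus 1 or 0.1, other scalings, covariates and leaving out each library. Added after the data were seen were library totals alone, removal of each library's smooth trend on log2 gene length, and list medians without each library in turn. The code was tested on simulated data. No 2 libraries of a group agreed within sampling noise (chi-square per degree of freedom of 47.8 to 181).

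Genes were named by rule: up to 12 called genes each way (none), the 20 lowest p with a symbol, the lowest p of each of 39 lists, 26 fixed genes, of which Dio2, Elovl3 and Fgf21 were not tested, and called interaction genes (none). That gave 79 genes. Others, such as Uqcrq, Pde3b, Postn or Ckb, were chosen after their values were seen. The members and lists were chosen with earlier results of these data known, and lists are described without a set test.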

Additional observations from a re-analysis of the deposited data

Results flagged for a closer look

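In a group of 4 or 5 libraries, a value was marked where its gap to the nearest other library, as a share of the group's range, was above Dixon's 95% critical value for that number of libraries. This held for 33 of 240 groups of named genes and list sums, and chance marks about 1 group in 20. The lists share libraries and some genes, so these marks are not independent. Values are normalised CPM.

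Coarct 29 stood high for Acaa2 (3300, others at most 1650) and Alpl (19, others at most 12). It stood high in the summed levels of the nuclear respiratory chain (46700, others 20600 to 27100), fatty acid oxidation (25100), triglyceride assembly and lipolysis (32900), the thermogenic program (11400), secreted factors of brown fat (9730), white adipocyte genes (4460) and Schwann cell genes (926). It stood low for clock genes (269, others 406 to 456) and for matrix turnover and TGF-beta genes (734).

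Coarct 19 stood high for skeletal muscle (8200), Tnnt1, the slow muscle troponin T (15.2, others 0 to 3.94), Klhl30 (5.08) and creatine and calcium cycling (602). Coarct 27 stood low for Polr2e (104) and Cd68 (8.92) and high for Ppargc1a (13.7). Coarct 23 stood high for sterol synthesis (827), and coarct 30 for Fkbp5, a glucocorticoid-induced chaperone partner (27, others 9.82 to 12).

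Sham 22 stood high for Fkbp5 (50.7, others 8.43 to 10), Mrc1 (60.2), Lox (28.9), Reln (7.62), Thy1, a surface protein of fibroblasts and neurons (14.8), lymphatic genes (107) and Schwann cell genes (992). It stood low for Acaa2 (895) and fatty acid oxidation (11400). Sham 24 stood low for Fabp5 (11.7) and high for blood endothelium (1480). Sham 20 stood high for Ankrd1, a stretch-induced muscle gene (0.751), and sham 26 for RT1-DMb, a class II peptide-loading gene (7.71, others 0.226 to 0.438).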

How the results depend on the processing

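The count of 0 called genes in coarct against sham BAT held under all alternatives run except 1: without sham 22 it was 1 (Tma7, a translation-associated gene, log2 4.06, adjusted p 0.0352 by edgeR, against 1.59 and 0.652 with all libraries). Leaving out 1 library at a time gave 0 to 1 calls, and 458 (without sham 20) to 2190 (without coarct 27) genes at an unadjusted p under 0.05. The DESeq2 Wald test called 2 genes in BAT minus PVAT below (LOC108349682, 14.03, adjusted p 0.00253, and LOC103693608, 8.83, adjusted p 0.0215) and 0 in the other contrasts; the cause was not tested. The other alternatives of both interactions gave 0, and leaving out 1 library gave 0. With the title number as a replicate block, 0 genes were called in both, with 1554 (above) and 2379 (below) at an unadjusted p under 0.05. Same-number deviations correlated over 0.1 in 4 of 9 pairs with PVAT above (-0.077 to 0.318) and 8 of 9 with PVAT below (-0.0159 to 0.35). Of the 9 libraries, 5 and 7 correlated best with their own number. The main interaction fit did not pair libraries by number, and these values do not show the libraries of 1 number to be independent. Whether 1 number is 1 rat was not tested. Coarct and sham BAT share no number. The median of all genes was 0.04 with TMM, 0.01 with DESeq2 size factors and -0.10 with library totals alone.

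Of 1736 values of the 79 named genes under alternatives, 1688 kept their direction, and the lowest adjusted p was 0.0593 (Myoc, DESeq2). The test against a minimum log2 fold change keeps the estimate of the main fit, so its values could not reverse. Of the 79 genes, 20 were picked for the lowest p in these libraries, and most alternatives reuse the same libraries. The count that kept direction is therefore a description. The 48 reversed values were in 12 genes, none of them called. With limma on log2(FPKM + 1) and log2(FPKM + 0.1), Jchain was -0.0492 and -0.0682, Ucp1 -0.109 and -0.1091, Cidea -0.0169 in both and Adipoq -0.0085 in both. With library totals alone, Jchain was -0.0512, Ucp1 -0.0663, Cidea -0.0144 and Arntl -0.0072. With the length trend removed, Jchain was -0.228, Ucp1 -0.0963, Cidea -0.196 and Vegfa 0.0183. Within libraries above the 12S split, Jchain was -0.282, Cidea -0.1045, Adipoq -0.124, Agt -0.632, Cd68 0.315, Vegfa 0.284 and Fkbp5 0.149. Below it, Egr3 was 0.0751, Lep -0.252 and Arntl -0.0828. With the side of the split as a term, Cd68 was 0.0731 and Vegfa 0.0232. Without a filter on low counts, Vegfa was 0.0010. Leaving out 1 library gave ranges of -0.0988 to 0.363 for Jchain, -0.0891 to 0.217 for Ucp1, -0.111 to 0.289 for Cidea, -0.0426 to 0.262 for Adipoq, -0.323 to 0.087 for Pck1, -0.192 to 0.121 for Cd68, -0.149 to 0.0752 for Vegfa and -0.918 to 0.564 for Fkbp5.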

Other observations

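Further gene groups of BAT are given here as values. Glucose uptake and glycolysis genes were fitted higher in coarct BAT in 22 of 30, with a median log2 difference of 0.24 that was 0.10 without coarct 30 and 0.13 without sham 22. Cell cycle genes were fitted higher in 23 of 30, with a median of 0.20 that was 0.11 without coarct 30 and 0.13 without sham 24. Ube2c, a ubiquitin-conjugating enzyme of mitosis, averaged 1.03 ± 0.417 normalised CPM in coarct BAT and 0.476 ± 0.147 in sham BAT. Heat shock and unfolded protein response genes were fitted higher in 13 of 21, with a median of 0.18 that was 0.03 without coarct 29 and 0.06 without sham 22. Ddit3, the stress factor CHOP, averaged 32.3 ± 11.8 in coarct BAT and 18.1 ± 5.10 in sham BAT. Reactive oxygen and antioxidant genes were fitted higher in 13 of 21, with a median of 0.10 that was 0.03 without coarct 29. Cybb, the NADPH oxidase subunit of phagocytes, was at 10.6, 20.7, 23.1, 15.1 and 15.7 in coarct BAT and at 25.3, 32.9, 28.5 and 23.2 in sham BAT. Its groups did not overlap, by a narrow margin between coarct 27 and sham 26. Secreted factors of brown fat were fitted higher in 17 of 24, with a median of 0.21 that was -0.04 without coarct 29. Of those with an unadjusted p under 0.05 (12.5%, beside 6.8% of all genes), 2 were higher and 1 was lower, Fstl1 (log2 difference -0.56). Vegfa, the growth factor of blood vessels, averaged 449 ± 71.7 in coarct BAT and 450 ± 86.8 in sham BAT.

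Interferon-stimulated genes were fitted higher in 11 of 31, with a median of -0.05 that was 0.02 without sham 26. Mx1, an antiviral GTPase, averaged 3.94 ± 1.20 in coarct BAT and 6.84 ± 1.84 in sham BAT. Glucocorticoid-induced genes were fitted higher in 6 of 18, with a median of -0.21 that was 0.0047 without sham 22. MHC class II genes were fitted higher in 4 of 11, with a median of -0.17 that was 0.17 without sham 22. Matrix turnover and TGF-beta genes were fitted higher in 8 of 28 (median -0.17, and -0.06 without coarct 29). Fibroblast and progenitor genes were fitted higher in 3 of 14 (median -0.23, and -0.07 without sham 22). Hypoxia genes were fitted higher in 7 of 16 (median -0.06) and genes of the renin-angiotensin and natriuretic systems in 6 of 13 (median -0.05), and without coarct 29 these medians turned to 0.0064 and 0.05. T and NK cell genes were fitted higher in 9 of 15 with a median of 0.22, which was -0.14 without coarct 29, -0.16 without coarct 23 and -0.08 without sham 24. Cd4, their member of lowest p, was lower, with a log2 difference of -0.53. Neutrophil and mast cell genes were fitted higher in 4 of 12 (median -0.16, and -0.05 without coarct 27). Erythroid genes were fitted higher in 5 of 6 (median 0.40), which was 0.09 without sham 22, 0.20 without coarct 27 and 0.23 without coarct 29. White adipocyte genes were fitted higher in 9 of 12 (median 0.32, and 0.04 without coarct 29). Their only member with an unadjusted p under 0.05 (8.33%, beside 6.8% of all genes) was lower. This was Slc7a10, at 7.45 ± 3.66 in coarct BAT and 14.3 ± 6.40 in sham BAT (log2 difference -0.94, unadjusted p = 0.0288). Sympathetic neuron genes were fitted higher in 4 of 5 (median 0.26), which was -0.02 without coarct 29 and 0.09 without sham 24.

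The summed level of the 13 cardiac muscle genes in the table was 1.08 to 7.67 in coarct BAT and 1.47 to 3.71 in sham BAT. For 11 mesothelial genes it was 1.81 to 3.94 in coarct BAT and 1.28 to 5.15 in sham BAT. For 10 B and plasma cell genes it was 5.38 to 11.5 in coarct BAT and 5.83 to 8.26 in sham BAT. For 10 lymph node and thymus genes it was 9.36 to 22.2 in coarct BAT and 13.2 to 39.1 in sham BAT. Of these 4 lists, 2, 1, 2 and 3 members were tested, in the order given.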
